A study of Homo sapiens with 12 samples.

Results

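The genes described here are effectors of the integrated stress response: the transcription factors ATF4, ATF5 and DDIT3 (CHOP), the feedback genes TRIB3 and PPP1R15A, the glutathione-degrading enzyme CHAC1, the mTORC1 inhibitors SESN2 and DDIT4, and the secreted hormones GDF15 and FGF21. They were taken by name, as transcript cluster rows annotated with that 1 symbol. Of the 10 genes 9 had such a row, out of 66212 rows tested. ATF5 is not reported, because its row carries the symbol of a second gene. Rows were to be chosen by the highest mean over 12 arrays where a gene had several, but each of the 9 had 1 row. The gene set itself was drawn up with earlier siRNA effects on these arrays known. The p-values, counts and medians of its siRNA effects therefore describe these genes and are not independent evidence about the response.

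RNA was measured on 12 arrays in 4 groups of 3: Hep3B cells transfected with an siRNA, Hep3B cells given a negative control RNA, Huh7 cells with the siRNA, and Huh7 cells with the control RNA. Both are established lines from human liver cancer, and RNA was taken 48 h after transfection. The study's title concerns a long non-coding RNA, and the labels name neither the siRNA's target nor its sequence nor the number of siRNAs. The level of that RNA is not analysed here, since no row matched it by name. All arrays were of transfected cells, so an effect of transfection itself cannot be seen.

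Levels are given on a log2 scale after quantile normalization between arrays, so a difference of 1 is a doubling. Array medians as deposited ran from 3.82 to 3.94. The brightest of 23 background control rows averaged 5.495, and a level at or below this ceiling is called within background. All 8 liver cell markers with a row (ALB, AFP, APOB, APOA2, TTR, SERPINA1, FGB and AHSG) lay above it in each group. Their summed level was 98.1 to 99.1 in Hep3B siRNA arrays and 100.7 to 101.1 in Hep3B controls, and 97.2 to 99.1 in Huh7 siRNA arrays and 102.8 to 102.9 in Huh7 controls. Of the 8, 1 rose and 4 fell in Hep3B and none rose and 5 fell in Huh7. The part of this fall in the results below was not tested. Markers of endothelial and blood cells lay within background in all groups, as did those of fibroblasts except LUM in Huh7 (6.44 with siRNA and 6.14 in controls). One label of Huh7 control array 1 gives Hep3B where 3 others give Huh7. Its r was at least 0.984 with the Huh7 arrays and at most 0.96 with the Hep3B arrays. Without it 5 effectors were called in Huh7, 3 in the difference between lines and 3 between controls. Separate cultures are not stated in the labels, and the spread behind each p-value may be technical. In bulk RNA, a change in each cell and a change in the mix of cells cannot be told apart.

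In the integrated stress response, 4 kinases (EIF2AK1 to EIF2AK4) sense heme lack or mitochondrial stress, double-stranded RNA, unfolded protein in the endoplasmic reticulum, and missing amino acids. Each phosphorylates the translation factor eIF2, which slows most protein synthesis but favours translation of ATF4 mRNA. ATF4 then switches on genes for amino acid supply, its partner CHOP and several feedback proteins. It binds a composite site, the C/EBP-ATF response element, in many of these genes. Liver cells can secrete GDF15 and FGF21 under this response.

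Promoter windows of the 9 genes were searched on both strands for the core of that element, TGATGNAA, and for the full cyclic AMP response element, TGACGTCA. The windows, from RefSeq on GRCh38.p14, reach 250 bases before to 50 bases after an annotated start, and all 9 genes matched with 13 windows. The first motif was found in 2 of the 9 genes, CHAC1 and FGF21, against 4.46% of 27305 genes in the table. The second was found in 1, PPP1R15A, against 2.25%. By their letters the motifs cannot overlap each other, so a match of one is never part of a match of the other. The 250 bases before the start are shown for these 3 genes, because CHAC1 and FGF21 carry the same 8 letters and differ in their array signal. Capitals mark the match. In CHAC1 (chr15:40953221-40953470, plus strand) it lies 209 to 202 bases before the start, and in FGF21 (chr19:48755274-48755523, plus strand) 54 to 47 bases before it. Both read TTGCATCA, which is TGATGCAA on the other strand. In PPP1R15A (chr19:48872171-48872420, plus strand) the match lies 58 to 51 bases before the start.
CHAC1: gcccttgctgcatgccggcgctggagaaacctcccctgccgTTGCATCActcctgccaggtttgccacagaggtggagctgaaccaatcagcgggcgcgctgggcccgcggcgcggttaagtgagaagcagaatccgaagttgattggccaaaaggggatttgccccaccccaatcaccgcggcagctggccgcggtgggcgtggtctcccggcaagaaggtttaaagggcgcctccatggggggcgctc
FGF21: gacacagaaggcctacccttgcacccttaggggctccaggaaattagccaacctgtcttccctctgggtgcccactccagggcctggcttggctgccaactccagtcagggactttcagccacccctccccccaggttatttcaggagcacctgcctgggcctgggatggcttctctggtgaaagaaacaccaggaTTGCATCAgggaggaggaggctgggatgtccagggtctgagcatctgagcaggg
PPP1R15A: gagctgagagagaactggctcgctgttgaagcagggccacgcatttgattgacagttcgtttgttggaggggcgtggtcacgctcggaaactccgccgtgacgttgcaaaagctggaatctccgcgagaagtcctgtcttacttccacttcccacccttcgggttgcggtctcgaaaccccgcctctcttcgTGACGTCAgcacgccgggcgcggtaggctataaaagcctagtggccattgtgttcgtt
A match is a run of letters, not a measured binding site, and the other 6 genes may hold such sites outside these windows.

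With the siRNA, 8 of the 9 genes were higher in Hep3B cells and 5 of 9 in Huh7 cells, and none was lower. In Hep3B these were ATF4, DDIT3, TRIB3, PPP1R15A, CHAC1, SESN2, DDIT4 and GDF15. In Huh7 they were DDIT3, TRIB3, PPP1R15A, SESN2 and GDF15. Among all rows, 5.63% were called higher and 4.66% lower in Hep3B, and 4.56% higher and 3.49% lower in Huh7. Among the 8780 named rows above background in at least 1 group, 20.6% were called higher and 17.5% lower in Hep3B, and 15.2% higher and 16.4% lower in Huh7. The median log2 change over the 9 genes was 1.10 in Hep3B and 0.67 in Huh7, against -0.01 over all rows in each line. Over named rows above background the median was 0.002 in Hep3B and -0.04 in Huh7. The 9 genes were chosen with such effects known, so these contrasts describe the set and are no test of it. In both lines the median of the 9 genes is the change of PPP1R15A, a row within background in all groups. Its size is therefore limited by background. Called means an adjusted p below 0.05 in limma, with 1 mean per group over all 12 arrays and Benjamini-Hochberg adjustment over all rows. Each ± is the standard error of a log2 change, with n = 3 arrays per group.

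**Figure D1:**
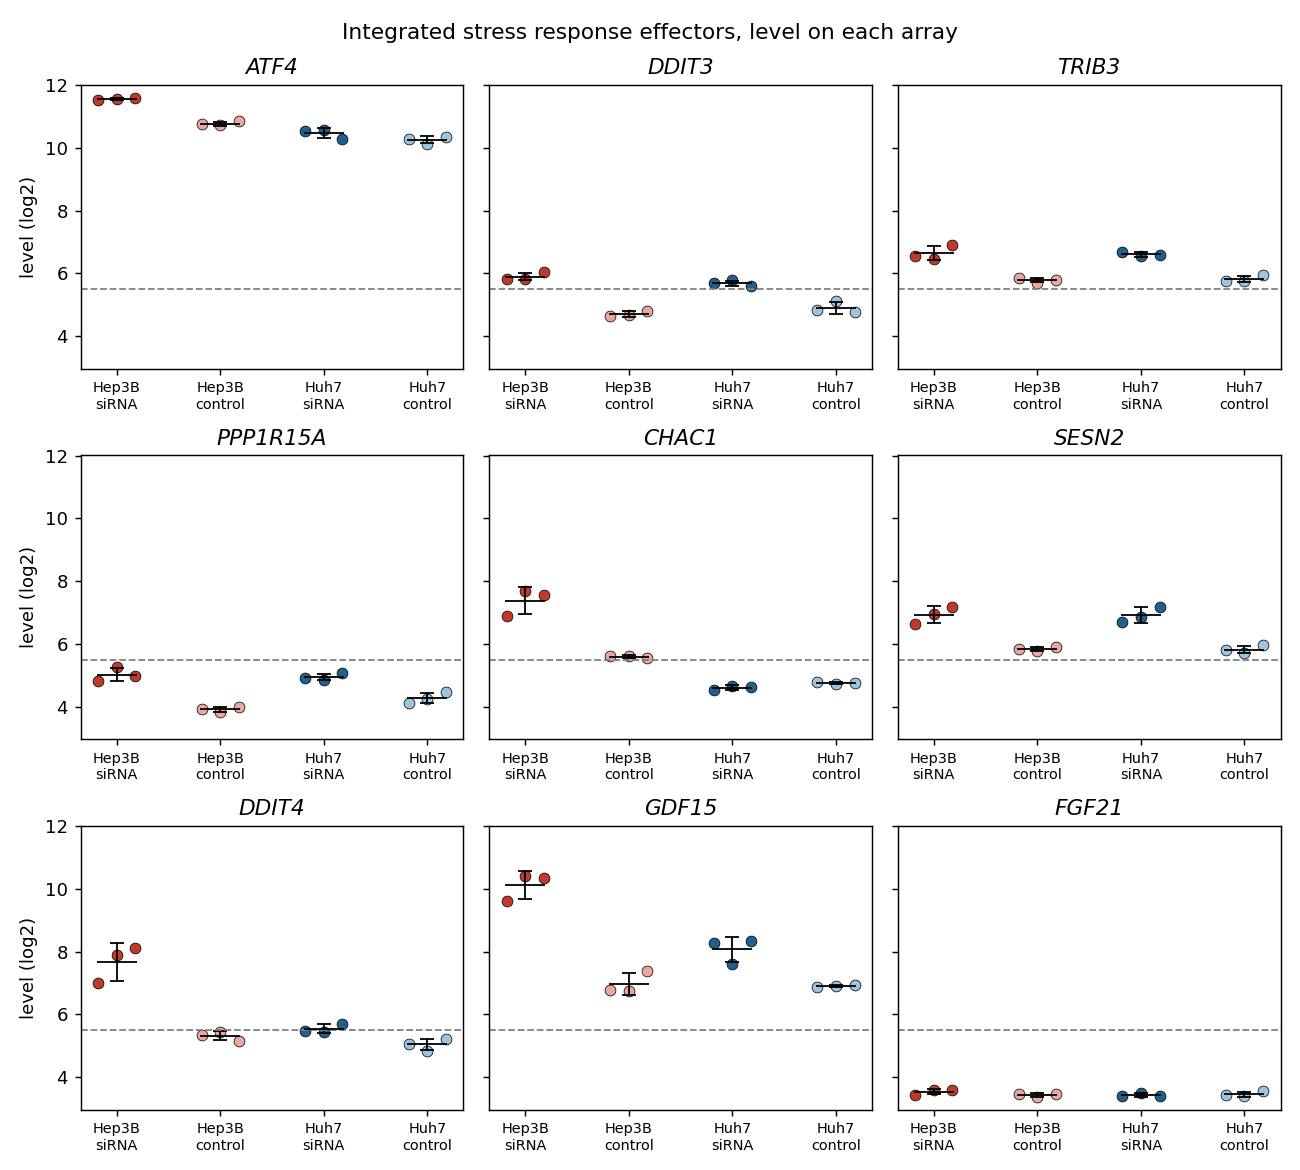
Level of each gene (log2, vertical axis) on the 12 arrays, by group. Points are arrays, horizontal bars are means with SD (n = 3), and the dashed line is the background ceiling of 5.495. GDF15, DDIT4, CHAC1, ATF4 and DDIT3 each stand higher in the Hep3B siRNA arrays than in all other arrays. DDIT3 crosses the ceiling with siRNA in both lines, and PPP1R15A and FGF21 lie below it in all groups.

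ATF4 encodes the central transcription factor of the response, whose output is set largely by translation of its mRNA. Its level was 11.51, 11.57 and 11.58 in Hep3B siRNA arrays, against 10.75, 10.72 and 10.84 in Hep3B controls. All siRNA arrays lay above all controls, and the change was 0.79 ± 0.09 (limma adjusted p = 0.000179), a 1.73-fold rise. In Huh7 the level was 10.52, 10.58 and 10.30 with siRNA, against 10.28, 10.13 and 10.34 in controls. Those groups overlapped, and the change of 0.22 ± 0.09 had an adjusted p of 0.199 (95% interval 0.02 to 0.41). Without Huh7 siRNA array 3, the lowest of its group, it was 0.30 with an adjusted p of 0.0484. ATF4 was the brightest of its own 4 groups in Hep3B siRNA cells and dimmest in Huh7 controls, and the control arrays of the lines also differed, by 0.52 ± 0.09 (Hep3B minus Huh7, adjusted p = 0.00105).

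DDIT3 encodes CHOP, a transcription factor that acts with ATF4 and can promote cell death under lasting stress. It measured 5.83, 5.83 and 6.04 in Hep3B siRNA arrays, against 4.64, 4.67 and 4.80 in Hep3B controls. In Huh7 it measured 5.68, 5.77 and 5.59 with siRNA, against 4.83, 5.12 and 4.76 in controls. In each line all siRNA arrays were above background and all controls within it, so the rise is a lower bound. It was at least 1.32-fold in Hep3B (adjusted p = 3.38e-05) and at least 1.14-fold in Huh7 (adjusted p = 0.00087). The measured log2 changes were 1.19 ± 0.10 in Hep3B and 0.78 ± 0.10 in Huh7.

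TRIB3 is a pseudokinase induced by ATF4 and CHOP that restrains ATF4 in turn. Levels were 6.56, 6.46 and 6.89 in Hep3B siRNA arrays, against 5.84, 5.70 and 5.80 in Hep3B controls. Huh7 siRNA arrays gave 6.69, 6.55 and 6.57, against 5.75, 5.76 and 5.94 in Huh7 controls. Both lines moved alike in size, by 0.86 ± 0.11 in Hep3B (adjusted p = 0.000431) and 0.79 ± 0.11 in Huh7 (adjusted p = 0.00107), with no overlap between siRNA and control arrays in either. Control levels of the lines differed by -0.03 (95% interval -0.27 to 0.21).

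PPP1R15A encodes GADD34, the stress-induced subunit that brings a phosphatase to eIF2 and ends the response. Its signal stayed below the ceiling in all groups. It read 4.82, 5.25 and 4.98 in Hep3B siRNA arrays, against 3.93, 3.82 and 3.99 in Hep3B controls, and 4.91, 4.85 and 5.06 in Huh7 siRNA arrays, against 4.11, 4.25 and 4.45 in Huh7 controls. The groups did not overlap in either line, and the row was called higher in both (adjusted p = 0.000137 in Hep3B and 0.00487 in Huh7), but no fold is given for a signal within background. Between the control groups it was lower in Hep3B (mean 3.91) than in Huh7 (4.27), with an adjusted p of 0.055 that became 0.0373 without Huh7 control array 1.

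CHAC1 degrades glutathione and is a target of the ATF4 and CHOP branch. In Hep3B it measured 6.89, 7.68 and 7.55 with siRNA, against 5.60, 5.62 and 5.55 in controls, which lay just above the ceiling. The rise was 1.78 ± 0.16 (adjusted p = 4.02e-05), or 3.44-fold. Huh7 arrays read 4.53, 4.67 and 4.62 with siRNA, against 4.78, 4.73 and 4.76 in controls, all within background. The Huh7 groups did not overlap, with siRNA arrays lower, but the row was not called (adjusted p = 0.708), and 11.4% of all rows had siRNA arrays wholly below controls in Huh7. CHAC1 was at least 1.07-fold higher in Hep3B controls than in Huh7 controls (adjusted p = 0.00245).

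SESN2 senses leucine and restrains the growth kinase complex mTORC1. It stood at 6.64, 6.95 and 7.19 in Hep3B siRNA arrays, against 5.84, 5.78 and 5.90 in Hep3B controls. Huh7 arrays gave nearly the same values, 6.70, 6.87 and 7.18 with siRNA, against 5.80, 5.70 and 5.95 in controls. The rise was 1.09 ± 0.15 in Hep3B (adjusted p = 0.000623) and 1.10 ± 0.15 in Huh7 (adjusted p = 0.000816). Neither the control levels (Hep3B minus Huh7 0.03, 95% interval -0.30 to 0.35) nor the effects of siRNA were called different between the lines.

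DDIT4, also known as REDD1, restrains mTORC1 through the TSC complex and also responds to hypoxia and glucocorticoids. It read 6.99, 7.90 and 8.11 in Hep3B siRNA arrays, against 5.35, 5.43 and 5.16 in Hep3B controls. All 3 controls lay within background, so DDIT4 was at least 4.51-fold higher (measured log2 change 2.35 ± 0.24, adjusted p = 8.42e-05). In Huh7 it read 5.47, 5.44 and 5.71 with siRNA, against 5.07, 4.84 and 5.21 in controls. Only siRNA array 3 of Huh7 was above background, and although the groups did not overlap, the change was not called (0.50 ± 0.24, adjusted p = 0.284, 95% interval -0.02 to 1.02).

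GDF15 is a stress hormone that curbs appetite through the brain stem receptor GFRAL, and is a target of both ATF4 and p53. In Hep3B it measured 9.62, 10.39 and 10.34 with siRNA, against 6.77, 6.74 and 7.37 in controls. By measured values this was the largest rise among the 9 genes, 3.16 ± 0.25 or 8.93-fold (adjusted p = 1.73e-05), and the 18th largest of the 8780 named rows above background in at least 1 group. Rows with 1 group within background, DDIT4 among them, enter that order with their measured change and not with the lower bound against the ceiling. In Huh7 it measured 8.27, 7.62 and 8.32 with siRNA, against 6.86, 6.92 and 6.93 in controls. The Huh7 rise was 1.17 ± 0.25 or 2.25-fold (adjusted p = 0.0132), the 117th largest. Leaving out siRNA array 1 of Huh7 gave an adjusted p of 0.0549, and leaving out array 3 gave 0.0503. Control levels of the lines did not separate (Hep3B minus Huh7 0.06, 95% interval -0.48 to 0.61), and the siRNA arrays of Hep3B stood above those of Huh7.

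FGF21, a liver hormone of fasting and amino acid lack, gave no signal above background. It read 3.44, 3.60 and 3.57 in Hep3B siRNA arrays, against 3.47, 3.37 and 3.47 in Hep3B controls. Huh7 arrays read 3.40, 3.48 and 3.41 with siRNA, against 3.42, 3.39 and 3.54 in controls. The groups overlapped in both lines (adjusted p = 0.508 in Hep3B and 0.925 in Huh7). CHAC1 and FGF21 thus share the 8 letters shown above, and 1 of the 2 gave a signal above background in Hep3B.

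Across both lines, siRNA and control arrays did not overlap for 8 of the 9 genes in Hep3B and for 7 in Huh7, of which CHAC1 was lower. Over all rows, siRNA arrays lay wholly above controls for 13.3% in Hep3B and 11.5% in Huh7, and wholly below for 13.7% and 11.4%. Within the Hep3B siRNA group, array 1 was the lowest for CHAC1, SESN2, DDIT4, GDF15, ATF4 and PPP1R15A. Without it the Hep3B rises of the 8 called genes kept their call.

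The next question was whether the siRNA effect differed between the lines, tested as the Hep3B effect minus the Huh7 effect. It was larger in Hep3B for 4 of the 9 genes, GDF15, CHAC1, DDIT4 and ATF4, and smaller for none. In the same test 0.927% of all rows and 3.67% of named rows above background had a larger effect, and 0.945% of all rows a smaller one. GDF15 had a difference of 1.99 ± 0.35 (adjusted p = 0.0172), which missed the threshold without Hep3B control array 1 (0.0506) or 2 (0.0539). CHAC1 had a difference of 1.93 ± 0.23 (adjusted p = 0.00246), called under all 21 alternatives, although its Huh7 levels were within background. DDIT4 had a difference of 1.86 ± 0.33 (adjusted p = 0.0189). Of the arrays left out in turn, Hep3B control array 3 (0.0588) and Hep3B siRNA array 2 (0.0529) ended that call, and the replicate block gave 0.0679. The smaller ATF4 difference of 0.57 ± 0.12 (adjusted p = 0.0471) missed the threshold under 13 of 21 alternatives, with adjusted p of up to 0.176. Among them was each left-out array except Huh7 control array 2 and Huh7 siRNA array 2, with 0.115 without Hep3B control array 1, 0.127 without 2, 0.0843 without 3, 0.0686 without Hep3B siRNA array 1, 0.106 without 2 and 0.111 without 3. It was 0.104 without Huh7 control array 1, 0.0996 without 3, 0.0773 without Huh7 siRNA array 1 and 0.0512 without 3.

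For the other genes no difference between the lines was called. DDIT3 differed by 0.42 (95% interval 0.09 to 0.74, adjusted p = 0.237), TRIB3 by 0.07 (-0.27 to 0.41) and SESN2 by -0.02 (-0.47 to 0.44). The intervals of TRIB3 and SESN2 exclude a difference as large as that measured for GDF15, CHAC1 or DDIT4. PPP1R15A and FGF21, within background in both lines, had adjusted p of 0.295 and 0.714.

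**Figure D2:**
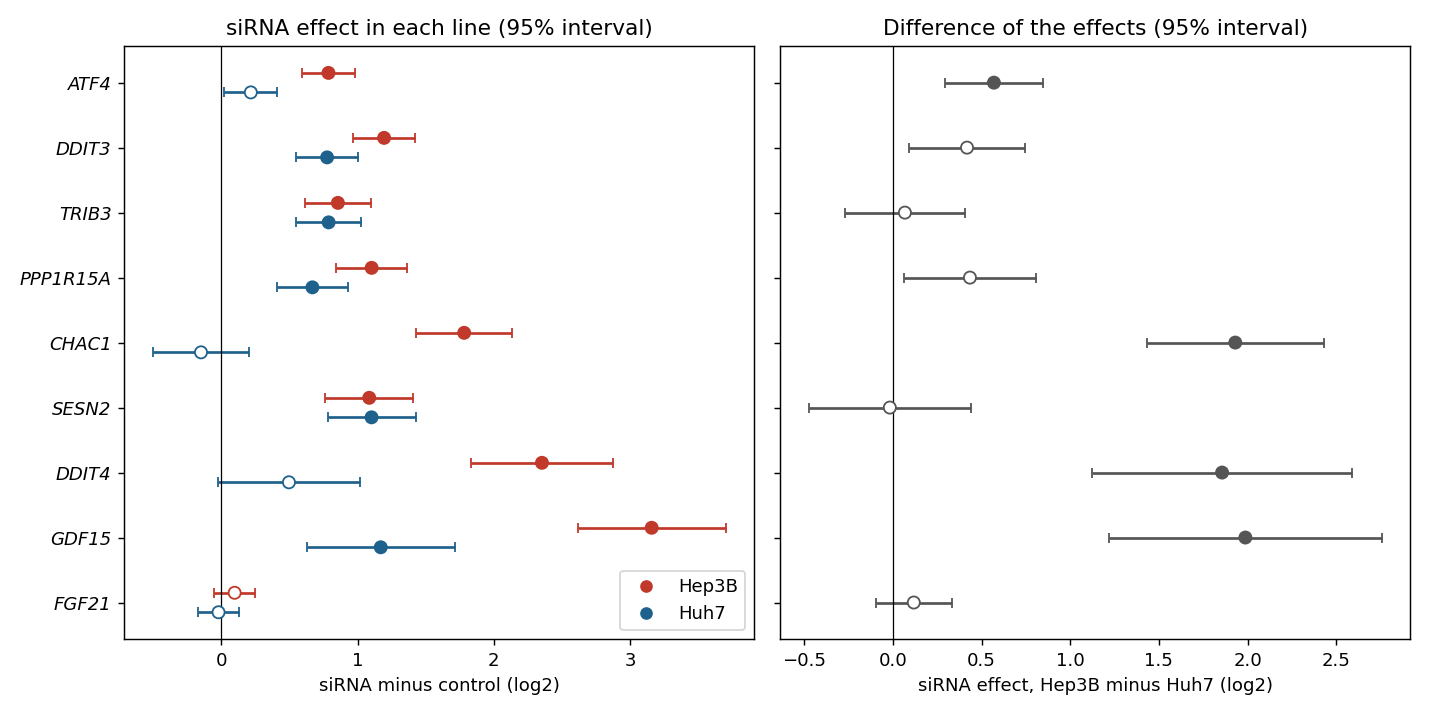
Left, siRNA minus control (log2) in Hep3B and Huh7 for each gene, and right, the Hep3B effect minus the Huh7 effect. Bars are 95% intervals from limma and filled points are called at an adjusted p below 0.05. TRIB3 and SESN2 moved alike in both lines, whereas GDF15, CHAC1 and DDIT4 differed by 1.86 to 1.99, and levels within background limit DDIT3, PPP1R15A, CHAC1 in Huh7, DDIT4 and FGF21.

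Between the control arrays, 2 of the 9 genes were higher in Hep3B, ATF4 and CHAC1, against 9.9% of all rows and 29.5% of named rows above background. None was lower, against 11% and 35.9%. The 2 genes with higher Hep3B control levels were also among the 4 with a larger effect in Hep3B. These comparisons share the control arrays, which enter them with opposite sign.

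Profiles most like each gene were sought over the 12 arrays, by the root mean square difference of levels centred on their own mean. For GDF15 the nearest was RNU12-2P (0.32), against 1.33 for the spread of GDF15 itself. SESN2 lay nearest to PHLDA1 (0.12), then to SLC3A2 (0.14), the shared heavy chain of several amino acid transporters, and MRTFA (0.15). For TRIB3 they were ADGRG6 (0.13), LOC652276 (0.13) and MRTFA (0.13), and for DDIT3 KLF10 (0.11), BDP1 (0.12) and KMT2E (0.14). ATF4 lay nearest to KIAA1147, NR1D1, a nuclear receptor of the clock, and ZNF512B, at 0.10 to 0.11. CHAC1 was nearest to MIR4482 (0.19), FLRT2 (0.21) and GPAM (0.21). DDIT4 lay nearest to RASGEF1B (0.28), then to the inhibin chain INHBE (0.30), itself a known ATF4 target, and JUNB (0.33).

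The kinases, eIF2 factors and their regulators upstream of ATF4 moved in both directions. Of 21 such genes, all with a row, 5 rose and 2 fell in Hep3B, and the same numbers in Huh7. All but 1 of the 21 lay above background in at least 1 group. Of named rows above background, 20.6% rose and 17.5% fell in Hep3B and 15.2% rose and 16.4% fell in Huh7. Their median log2 change was 0.08 in Hep3B and 0.04 in Huh7. EIF2AK1, the heme-regulated kinase that also relays mitochondrial stress, fell in both lines, by 0.43 ± 0.06 in Hep3B (adjusted p = 0.000724) and by 0.53 ± 0.06 in Huh7 (adjusted p = 0.000286). PERK, the kinase of the endoplasmic reticulum (EIF2AK3), rose in Huh7 by 0.71 ± 0.08 (adjusted p = 0.000278), with 0.22 ± 0.08 in Hep3B (adjusted p = 0.127). EIF2AK2, the kinase PKR that binds double-stranded RNA, rose in Huh7 by 0.55 ± 0.09 (adjusted p = 0.00285), with -0.03 in Hep3B. GCN2, the amino acid sensor (EIF2AK4), had changes of -0.06 in Hep3B and 0.04 in Huh7, both not called.

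The largest change in this list was in PPP1R15B, the constitutive counterpart of PPP1R15A. It averaged 11.44 in Hep3B siRNA arrays and 9.86 in Hep3B controls, a rise of 1.57 ± 0.09 (adjusted p = 2.4e-06). In Huh7 it averaged 9.93 with siRNA and 9.37 in controls, a rise of 0.56 ± 0.09 (adjusted p = 0.00233). The Hep3B rise was larger by 1.01 ± 0.12 (adjusted p = 0.00307), under all 21 alternatives. EIF2B2, a subunit of the exchange factor that recharges eIF2, rose in both lines, by 0.73 ± 0.10 in Hep3B and 0.95 ± 0.10 in Huh7, while EIF2S1, the eIF2 subunit that is phosphorylated, rose by 0.52 ± 0.10 in Hep3B (adjusted p = 0.00537) with 0.21 in Huh7 (adjusted p = 0.276). DNAJC3, an inhibitor of PERK, rose in Huh7 by 0.71 ± 0.09 (adjusted p = 0.000649). In Hep3B it rose by 0.32 ± 0.09 (adjusted p = 0.0495), a call lost under 7 of 16 alternatives.

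Among close relatives of the effectors, TRIB1 rose by 1.01 ± 0.09 in Hep3B (adjusted p = 3.09e-05) and 0.36 ± 0.09 in Huh7 (adjusted p = 0.0257), and TRIB2 lay within background. The Huh7 call of TRIB1 was lost without Huh7 control array 1 (0.0933) or 2 (0.0648) or Huh7 siRNA array 1 (0.0972) or 3 (0.0537). SESN1, the p53-induced sestrin, fell in both lines where SESN2 rose, by 0.58 ± 0.07 in Hep3B (adjusted p = 0.000418) and by 0.55 ± 0.07 in Huh7 (adjusted p = 0.000864). It ended within background in Hep3B (5.26 with siRNA and 5.84 in controls). CHAC2, the slower relative of CHAC1, averaged 6.25 with siRNA and 5.54 in controls of Hep3B, a rise of 0.71 ± 0.12 (adjusted p = 0.00315). In Huh7 it averaged 5.82 with siRNA and 6.39 in controls, a change of -0.57 ± 0.12 (adjusted p = 0.015) that missed the threshold without Huh7 control array 1 (0.0617) or 2 (0.0507). The Hep3B effect exceeded the Huh7 effect by 1.29 ± 0.17 (adjusted p = 0.00505). Of all 9 relatives, 3 rose and 1 fell in Hep3B, and 2 rose and 2 fell in Huh7, with medians of 0.07 and 0.09. Only 5 of the 9 lay above background in at least 1 group. Among named rows above background, 20.6% rose and 17.5% fell in Hep3B, and 15.2% and 16.4% in Huh7. The lists share some genes, so PPP1R15B is also counted with the kinases and regulators, and SESN1 with the p53 targets.

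Receptors for the 2 hormones were measured too. GFRAL and its partner RET, through which GDF15 signals, lay within background in all groups. KLB, the co-receptor for FGF21, fell in Huh7 (8.56 with siRNA and 9.48 in controls) by 0.93 ± 0.11 (adjusted p = 0.000401). In Hep3B it averaged 9.97 with siRNA and 10.35 in controls (adjusted p = 0.0541). FGFR3 rose by 0.70 ± 0.08 in Hep3B and 0.53 ± 0.08 in Huh7, where its controls averaged 5.53, and FGFR2 fell by 0.78 ± 0.06 in Hep3B and lay within background in Huh7. Of the 8 receptor genes 1 rose and 1 fell in each line, with medians of -0.03 in both. Only 4 of the 8 lay above background in at least 1 group. For comparison, 20.6% of named rows above background rose and 17.5% fell in Hep3B, and 15.2% and 16.4% in Huh7.

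Other genes that ATF4 is known to control moved in part. Of 22 genes of amino acid supply, 9 rose and none fell in Hep3B (median 0.29), and 6 rose and 1 fell in Huh7 (median 0.07). Of the 22, 19 lay above background in at least 1 group. The shares of named rows above background were 20.6% higher and 17.5% lower in Hep3B, and 15.2% and 16.4% in Huh7. The cystine transporter SLC7A11 averaged 12.48 in Hep3B siRNA arrays and 9.70 in Hep3B controls, a rise of 2.78 ± 0.40 (adjusted p = 0.000969). In Huh7 it averaged 8.64 with siRNA and 6.85 in controls, a rise of 1.79 ± 0.40 (adjusted p = 0.018). That Huh7 call was lost without Huh7 control array 1 (0.0638) or 2 (0.0522) or without Huh7 siRNA array 1 (0.0559) or 3 (0.0503). SLC7A5, which imports large neutral amino acids, rose by 1.74 ± 0.22 in Hep3B (adjusted p = 0.000377), and by 0.86 ± 0.22 in Huh7 (adjusted p = 0.0343). The Huh7 call of SLC7A5 was lost without any Huh7 array other than control array 3, with adjusted p of 0.0622 to 0.121. Its heavy chain SLC3A2 rose by 0.90 ± 0.13 in Hep3B (adjusted p = 0.000836) and 0.88 ± 0.13 in Huh7 (adjusted p = 0.00137). PSAT1, an enzyme of serine synthesis, fell in Huh7 by 1.21 ± 0.21 (adjusted p = 0.00381), with 0.01 in Hep3B. The glutamine transporter SLC38A2, chosen after its values were seen, was the 1 gene of this list with a called difference between the lines, larger in Hep3B by 1.49 ± 0.21 (adjusted p = 0.00624).

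Of 18 other ATF4 and CHOP targets with a row, 7 rose and none fell in Hep3B (median 0.23), and 4 rose and 1 fell in Huh7 (median 0.11). Of the 18, 14 lay above background in at least 1 group. Over named rows above background the shares were 20.6% higher and 17.5% lower in Hep3B, and 15.2% and 16.4% in Huh7. INHBE rose by 1.81 ± 0.27 (adjusted p = 0.00111) and the transcription factor ATF3 by 1.64 ± 0.14 (adjusted p = 2.92e-05) in Hep3B, where ATF3 controls lay within background. Their Huh7 changes of 0.38 and 0.35 were not called. In Huh7 the 2 largest rises among called genes were in CEBPG, a dimer partner of ATF4, by 0.46 ± 0.10 (adjusted p = 0.0204), and in VEGFA by 0.42 ± 0.06 (adjusted p = 0.00199). Both also rose in Hep3B, CEBPG by 0.86 ± 0.10 (adjusted p = 0.000319) and VEGFA by 0.49 ± 0.06 (adjusted p = 0.000477). The Huh7 call of CEBPG was lost without any Huh7 array other than control array 3, with adjusted p of 0.051 to 0.0766. Among 23 genes of bZIP partners, 7 rose and 1 fell in Hep3B and 3 rose and 1 fell in Huh7, with medians of 0.18 and 0.10. Only 12 of the 23 lay above background in at least 1 group. This list shares genes with the ATF4 and CHOP targets, ATF3 and CEBPG among them. The largest change of this list was in JUNB, a rise of 2.22 ± 0.23 in Hep3B (adjusted p = 9.1e-05), where its controls lay within background. Its Huh7 change of 0.75 ± 0.23 was not called (adjusted p = 0.0723). NFE2L2, the oxidative stress factor NRF2, was chosen after its values were seen. It averaged 10.62 in Hep3B siRNA arrays and 9.93 in Hep3B controls (adjusted p = 0.000119). In Huh7 it averaged 10.49 with siRNA and 10.51 in controls (adjusted p = 0.945).

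The ATF6 and XBP1 arm of the unfolded protein response went both ways. Of 17 genes 4 rose and 5 fell in Hep3B, and 4 rose and 4 fell in Huh7, with medians of 0.01 and -0.01. Above background in at least 1 group were 15 of the 17. Named rows above background were called higher in 20.6% and lower in 17.5% in Hep3B, and in 15.2% and 16.4% in Huh7. The chaperone enzyme PDIA4 fell in both lines, by 1.23 ± 0.10 in Hep3B (adjusted p = 2.39e-05) and by 0.91 ± 0.10 in Huh7 (adjusted p = 0.000259). SYVN1, a ubiquitin ligase of the endoplasmic reticulum, rose by 0.64 ± 0.10 in Hep3B (adjusted p = 0.00166), and EDEM1, which aids disposal of misfolded proteins, rose by 0.64 ± 0.08 in Huh7 (adjusted p = 0.00058). Of 10 mitochondrial chaperones and proteases 3 rose and 1 fell in Hep3B, and none rose and 1 fell in Huh7. They included the protease LONP1 (0.57 ± 0.10 in Hep3B) and the chaperonin subunit HSPE1, which fell by 0.38 ± 0.08 in Hep3B and by 0.48 ± 0.08 in Huh7. The HSPE1 call in Hep3B had an adjusted p of 0.0532 after median centring.

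GDF15 and SESN2 are also p53 targets, and Hep3B cells are known to lack p53 while Huh7 cells carry a mutant form. A part of p53 in the changes reported here was not tested. Of 18 other p53 targets with a row, 2 rose and 3 fell in Hep3B, and 1 rose and 4 fell in Huh7, with medians of -0.01 and -0.08. Only 11 of the 18 lay above background in at least 1 group, so these counts and medians include rows within background. As shares of named rows above background, 20.6% rose and 17.5% fell in Hep3B, and 15.2% and 16.4% in Huh7. GADD45A, which ATF4 also controls, rose by 1.15 ± 0.10 in Hep3B (adjusted p = 3.43e-05) and 1.06 ± 0.10 in Huh7 (adjusted p = 9.07e-05). MDM2, the ubiquitin ligase of p53, fell by 0.98 ± 0.07 in Hep3B (adjusted p = 1.26e-05) and by 0.59 ± 0.07 in Huh7 (adjusted p = 0.000509). TP53INP1 fell by 0.95 ± 0.17 in Huh7 (adjusted p = 0.00456), with -0.46 ± 0.17 in Hep3B (adjusted p = 0.122).

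Around mTORC1, the complex that SESN2 and DDIT4 restrain, 4 of 21 genes rose and 6 fell in Hep3B, and 2 rose and 1 fell in Huh7, with medians of -0.01 and 0.02. Only 15 of the 21 lay above background in at least 1 group, so the counts cover a wider set than the shares that follow. Of named rows above background, 20.6% rose and 17.5% fell in Hep3B, and 15.2% rose and 16.4% fell in Huh7. RRAGC, a GTPase that carries amino acid signals to mTORC1, averaged 6.82 with siRNA and 6.66 in controls of Hep3B, against 8.80 with siRNA and 7.32 in controls of Huh7. The Huh7 rise of 1.47 ± 0.09 (adjusted p = 7.22e-06) differed from Hep3B (Hep3B minus Huh7 -1.32 ± 0.13, adjusted p = 0.000825). Its relative RRAGD fell in Hep3B, by 0.77 ± 0.11 (adjusted p = 0.000888), and SEH1L rose there by 0.82 ± 0.10 (adjusted p = 0.000266). Neither was called in Huh7 (0.22 and 0.23). MTOR itself fell in Hep3B by 0.49 ± 0.08 (adjusted p = 0.0015, and 0.0842 after median centring), with 0.19 ± 0.08 in Huh7 (adjusted p = 0.189).

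**Figure D3:**
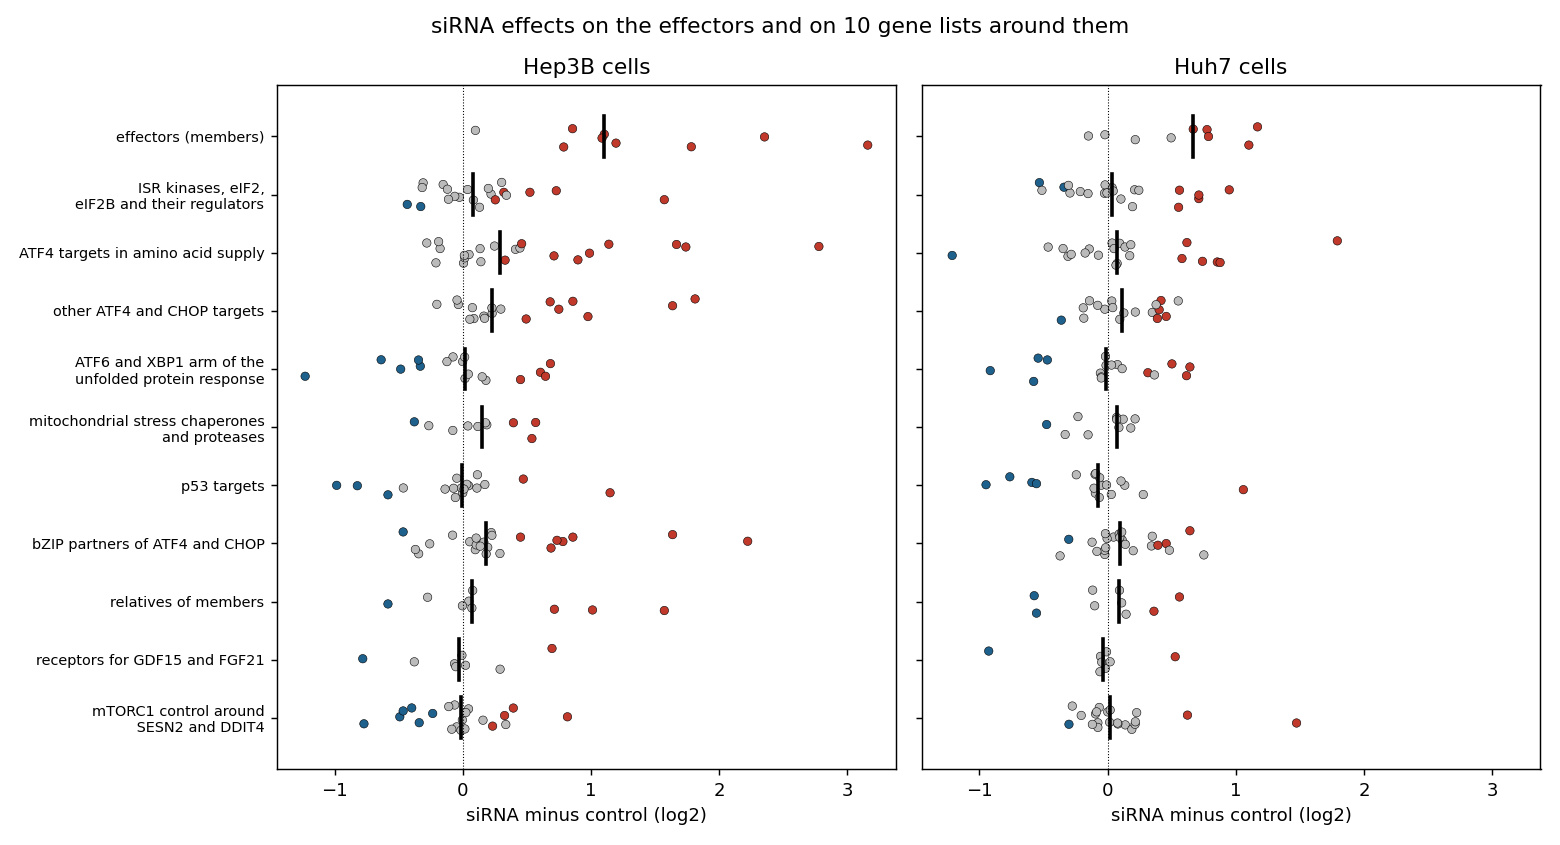
siRNA minus control (log2, horizontal axis) in Hep3B and Huh7 for the 9 effectors and for 10 lists of related genes. Some of the lists share genes. Each point is a gene, red where called higher, blue where called lower and grey where not called, and black bars are list medians. The effectors' medians of 1.10 in Hep3B and 0.67 in Huh7 lie right of the other lists' medians, which run from -0.03 to 0.29 in Hep3B and from -0.08 to 0.11 in Huh7. The effectors were chosen with earlier siRNA effects on these arrays known, so that distance is descriptive and no test. In both lines the effectors' median is the change of PPP1R15A, which lay within background in all groups.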

How the data were processed

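The deposited table holds 1 log2 expression value per row and array, as its values and row names show. The labels conflict on how it was made: the submitters' processing notes name Agilent Feature Extraction 10.7.1.1, the labelling protocol is Affymetrix, and row names are Affymetrix transcript clusters. Summarisation, between-array normalization and genome build are not given in the sources used here.

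From 70523 rows, 67528 transcript clusters and 23 background rows were quantile normalized (medians differed by 0.124). The probe table pairs 23781 of 25324 probes with 1 symbol and 1543 with several. Per symbol the row with the highest mean over 12 arrays was kept, giving 66212 rows and 22465 named genes. limma 3.58.1 (R 4.3.3) fitted all 12 arrays (8 residual degrees of freedom, spread trend), two-sided, for 4 comparisons. Lower bounds set dim arrays to the ceiling of 5.495.

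The genes, lists and tests were chosen with earlier results of these data known. Of each list, text names came from the 2 largest called changes per direction and line, and from any kinase, relative or receptor gene. NFE2L2 and SLC38A2 were chosen after their values were seen, as were the further genes with a called difference between lines. The number of arrays limits the precision. Alternatives were 3 other scalings, a filter on dim rows, the mean of probes, only the arrays compared, array weights, no trend, robust moderation, a replicate block and leaving out each array. Same-numbered siRNA and control arrays correlated in their deviations at r from -0.225 to 0.241 over 6 pairs, and control arrays of the 2 lines at 0.024 to 0.091 over 3 pairs, so the numbers were not used as pairs, although the design text speaks of sample pairs without saying what was shared.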

Additional observations from a re-analysis of the deposited data

Results flagged for a closer look

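The siRNA effect differed between the lines for 17 of the effectors and list genes, by the limma test of the Hep3B effect minus the Huh7 effect with adjustment over all rows. In the same test 1.87% of all rows and 6.95% of named rows above background were called in either direction. The list genes given here are those past the threshold in this test, and the lists were drawn up with earlier results known. Among the effectors the log2 difference was 0.57 for ATF4, 1.93 for CHAC1, 1.86 for DDIT4 and 1.99 for GDF15. Among list genes the change was more positive in Hep3B for PPP1R15B (1.01), the transporter SLC38A2 (1.49), the bZIP factors ATF3 (1.29), NFE2L2 (0.70) and JUNB (1.47), the hormone STC2 (0.93), TRIB1 (0.65) and CHAC2 (1.29). It was more negative in Hep3B for EIF2AK2 (-0.58), FGFR2 (-0.74), MTOR (-0.68), RRAGC (-1.32) and RRAGD (-0.99). Of these list genes, EIF2AK2 lost its call under 16 of 21 alternatives (highest adjusted p 0.198), JUNB under 15 (0.116), TRIB1 under 10 (0.114), STC2 under 5 (0.0633), MTOR under 2 (0.0966) and ATF3 under 1 (0.0828). Levels within background limit several of these differences. STC2 lay within background in 3 of the 4 groups, FGFR2 in both Huh7 groups, and JUNB and ATF3 in the controls of both lines, so their measured differences need not give the size of the true ones.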

How the results depend on the processing

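The Hep3B rises of the 8 called effectors kept direction and call under each alternative that tested them. Only rows above the background ceiling left PPP1R15A and FGF21 untested, with 7 genes called in Hep3B and 4 in Huh7. Leaving out each array gave 8 to 8 called effectors in Hep3B, 4 to 5 in Huh7, 2 to 4 for the difference and 2 to 3 between controls, and 5074 to 6023, 3993 to 4733, 614 to 1326 and 11943 to 12598 called rows. The replicate block left 2 effectors with a called difference, GDF15 and CHAC1, where DDIT4 had an adjusted p of 0.0679 and ATF4 0.176. It changed no other call among the effectors. Not every array correlated best with its own number. Rows with a called difference numbered 312 with the replicate block, 721 after median centring and 2301 among rows above the ceiling, against 1240. Called rows in Huh7 numbered 2680 with only the arrays compared, against 5328, and fewer arrays enter that fit. ATF4's difference had an adjusted p of 0.081 after median centring and 0.0531 after cyclic loess. The share of called rows that were higher was 54.7% in Hep3B and 56.7% in Huh7, and 65.9% and 70.1% after median centring. The cause of these shifts was not tested. Small uncalled changes turned sign. Between controls, FGF21 was 0.0458 on deposited values and SESN2 -0.0137 after median centring, and SESN2's difference was 0.0577 with array weights. With 1 array left out, differences between lines ran from -0.147 to 0.1239 for SESN2 and from -0.06 to 0.1565 for TRIB3. Between controls they ran from -0.0305 to 0.0921 for SESN2, -0.0655 to 0.0282 for TRIB3, -0.1449 to 0.17 for GDF15 and -0.0404 to 0.0357 for FGF21, and in Huh7 FGF21 ran from -0.0508 to 0.0254. Levels within background limit DDIT3, PPP1R15A, DDIT4, FGF21 and, in Huh7, CHAC1, and among list genes STC2, JUNB, ATF3 and FGFR2.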
